A study of Mus musculus with 6 samples.

Results

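Glycolysis and hypoxia genes are here 34 genes, taken by name, of the 19069 genes that were listed on at least 1 plate. They are 2 glucose transporters, 15 glycolytic enzymes, 4 genes of flux control and lactate export, 3 genes of oxygen sensing and 10 further genes known to respond to low oxygen. Single cells of colon tumors were measured by SORT-seq, a plate assay in which a cell is sorted into each well and the 3′ ends of its transcripts are counted with molecular barcodes. All mice carried Zeb1 fl/fl alleles on a C57BL/6 background and had received azoxymethane (AOM) and cycles of dextran sulfate sodium (DSS). The 3 FibCtrl mice lacked the Col6a1-Cre transgene, and the 3 FibΔZeb1 mice carried it, so that ZEB1, a transcription factor of epithelial-mesenchymal transition, was lost where this constitutive fibroblast Cre is active. Viable cells negative for EPCAM, CD45 and CD31 were sorted into 1 plate of 384 wells per mouse.

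Glycolysis breaks glucose down to pyruvate, which lactate dehydrogenase converts to lactate when oxygen is short or when flux is high. Under low oxygen, prolyl hydroxylases no longer mark HIF-1α for degradation, and the stabilized factor binds hypoxia response elements with the core letters ACGTG or GCGTG beside many of these genes. Fibroblasts of tumors and neutrophils are both known as glycolytic cells, and inflamed colon is known for low oxygen.

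Of 2304 wells, 1233 passed the filters on gene number and mitochondrial share, with a median of 1687 to 11164 transcripts per kept well between plates. By markers that are no members, 553 wells were fibroblast-like, 430 neutrophil-like, 72 pericyte-like and 54 epithelial-like, and 92 stayed without a type. Neutrophil-like wells were led by S100a9, S100a8 and Retnlg and held Ptprc, which encodes CD45, at 1443 CPM, which scales the counts of a group of wells to a common total, although the sort was for CD45-negative cells. Fibroblast-like wells held Ptprc at 4.95 CPM. Wells of these types differed in depth, with a median of 1451 transcripts in neutrophil-like and 11860 in fibroblast-like wells. FibCtrl mouse 2 and FibΔZeb1 mouse 3 gave only 20 and 15 fibroblast-like wells, against 56 to 176 in the other mice. The plate of FibΔZeb1 mouse 3 was also the only one from a different flow cell, so that run and mouse cannot be told apart there. Zeb1 was at 96.1 to 111 CPM in fibroblast-like wells of FibCtrl mice and at 58.2 to 66.2 CPM in those of FibΔZeb1 mice.

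In fibroblast-like wells the members together took 0.415% ± 0.051 of the transcripts (SD, n = 6 mice), with a range of 0.379% to 0.504%. The highest share was that of FibΔZeb1 mouse 3, of whose member counts 2 of 15 wells held 52.8%, and without these wells it was 0.320%, the lowest of the mice. The share was 0.513% ± 0.047 in pericyte-like wells (n = 3) and 0.509% ± 0.029 in epithelial-like wells (n = 3). It was highest in neutrophil-like wells, at 0.967% ± 0.201 (0.777% to 1.34%, n = 6), and there it was above the fibroblast-like share of the same mouse in 6 of 6 mice, by 2.34-fold ± 0.43. Glycolytic enzymes made up most of the share in every type, with 0.288% ± 0.026 in fibroblast-like and 0.526% ± 0.148 in neutrophil-like wells. The group of flux control and lactate export was the most uneven, at 0.00740% ± 0.00273 in fibroblast-like and 0.201% ± 0.024 in neutrophil-like wells. The further hypoxia-response genes took nearly equal shares, 0.0888% ± 0.0268 and 0.0858% ± 0.0440. These shares are a description of a chosen list and carry no test.

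**Figure D1:**
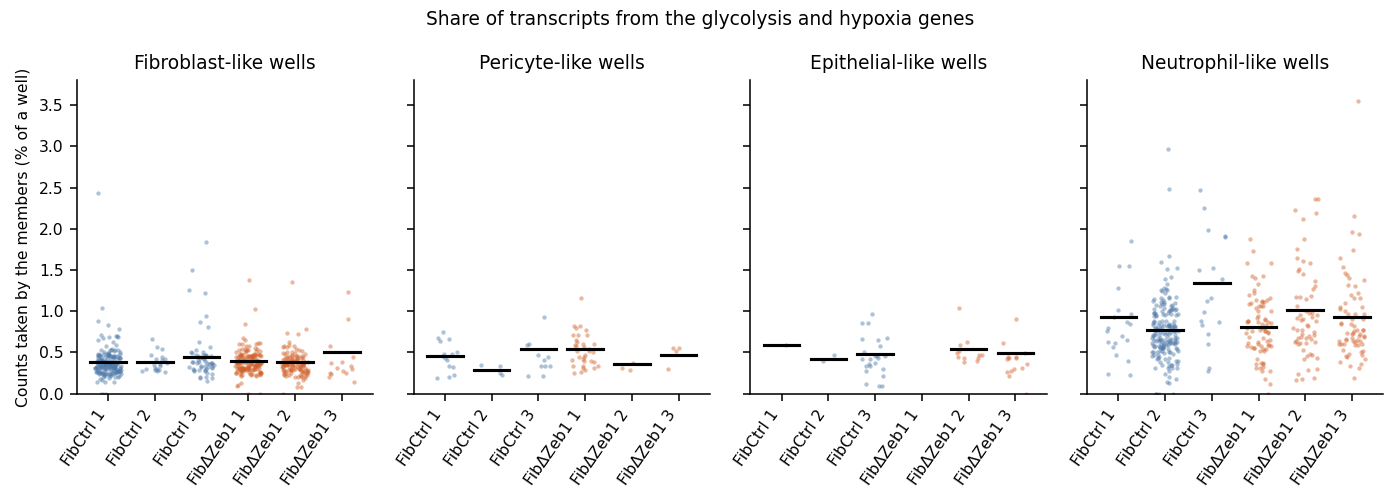
Share of the transcripts of single wells taken by the 34 members, in percent, by mouse in 4 cell types, with FibCtrl mice in blue and FibΔZeb1 mice in orange. Each bar is the share over all wells of a mouse, and it is higher in neutrophil-like than in fibroblast-like wells of each of the 6 mice although single wells overlap.

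Ldha and Pkm were the highest members in fibroblast-like wells. Since SORT-seq counts 1 barcode per molecule at the 3′ end, CPM compares genes without a correction for length. Ldha, which makes lactate from pyruvate, ranged from 451 to 641 CPM with a median of 572 (n = 6 mice). Pkm, the pyruvate kinase of the last step, ranged from 417 to 744 CPM with a median of 542. The ranges of both genes overlapped, as did the genotypes. Gapdh, the glyceraldehyde phosphate dehydrogenase, followed at 347 ± 88 CPM, Ndrg1, a stress-response gene induced by HIF and by metals, at 294 ± 184, and Aldoa, the muscle-type aldolase that most cells use, at 294 ± 37. Ldha and Pkm did not differ beyond their SD, nor did Gapdh, Ndrg1 and Aldoa, while the step from Pkm to Gapdh was larger than either SD. Gapdh has many processed pseudogenes in the mouse genome that could take or lend reads.

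Members differed in their spread over mice. Pgam1, the phosphoglycerate mutase, was at 244 ± 23 CPM, Gpi1, the glucose phosphate isomerase, at 156 ± 17 and Tpi1, the triosephosphate isomerase, at 149 ± 19. Ndrg1 ranged from 134 to 651 CPM, Hk2, the inducible hexokinase, from 69.9 to 374 and Adm, the vasodilator peptide adrenomedullin, from 12.3 to 106. In FibΔZeb1 mouse 3, Ndrg1 was the highest of all mice while Hk2 and Adm were the lowest. Its Ndrg1 level rested on 2 of its 15 fibroblast-like wells and was 116 CPM without them.

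The lowest totals over all kept wells were 3 counts of Eno1, 19 of Car9, 46 of Aldoc, 58 of Ankrd37 and 93 of Pdk1. Eno1, the ubiquitous enolase, has a near-identical retrogene copy in the mouse genome, and its level here is therefore uncertain. Car9 encodes a carbonic anhydrase, Aldoc an aldolase of brain, Ankrd37 a small ankyrin protein induced by HIF and Pdk1 a kinase that blocks pyruvate dehydrogenase. These genes were too sparse for a test between cell types.

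**Figure D2:**
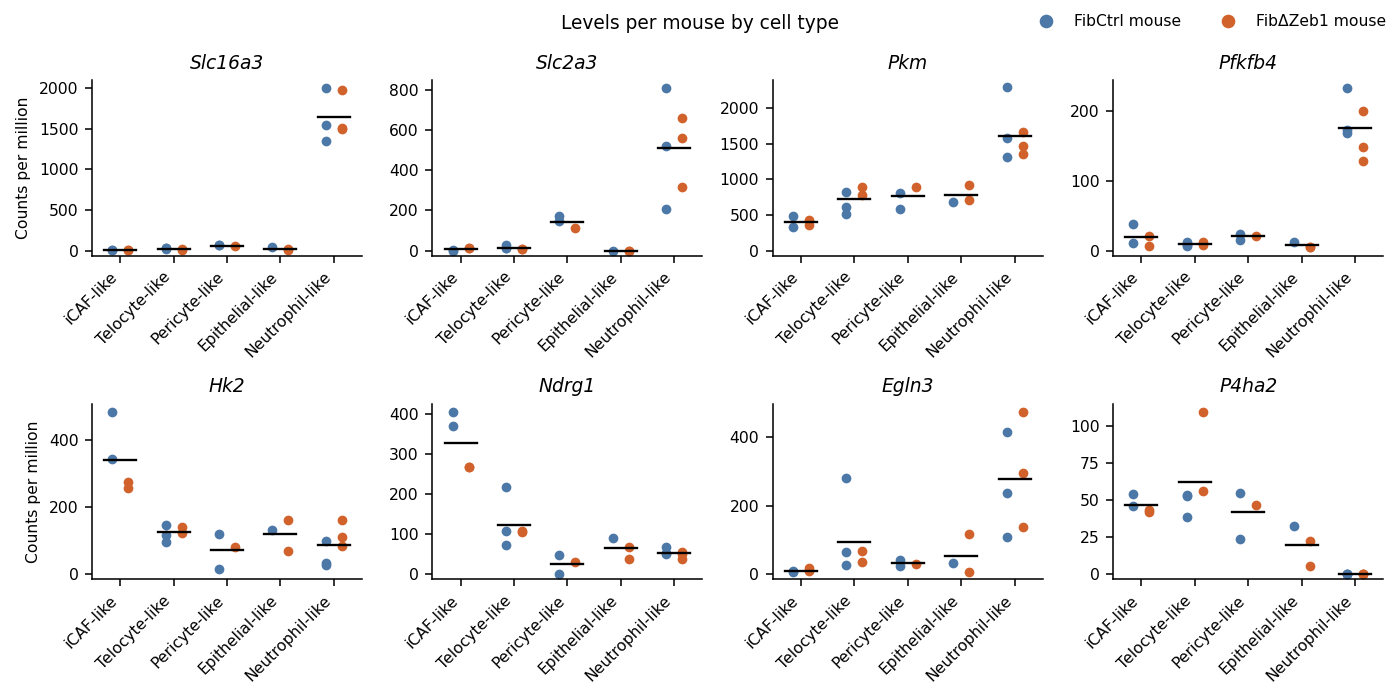
Levels in CPM (linear axes) of 8 members in 5 cell types, with a point for each mouse and a bar for the mean, FibCtrl in blue and FibΔZeb1 in orange. Slc16a3, Slc2a3, Pkm and Pfkfb4 stand highest in neutrophil-like wells, Hk2 and Ndrg1 in iCAF-like wells, and P4ha2 is at 0 in neutrophil-like wells of all 6 mice.

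For the promoters, the RefSeq table (GRCm38.p6) held an entry for 30 members and none for Slc2a3, Bnip3l, Ndrg1 and Ero1l. The core letters ACGTG or GCGTG, read on both strands and with overlapping matches such as CACGTG counted as 1 site, stood in the 250 bases before the start of 27 of these members (90.0%) and at least 2 times in 18 (60.0%). Of 27025 genes in the table, 41.5% held at least 1 and 15.2% at least 2 such sites. The members are a chosen list, both cores hold the letters CG, and base content was not matched between these shares. Slc16a3, Egln3, Hk2 and P4ha2 are shown because the differences between cell types below turn on them, 5′ to 3′ on the strand of the gene, with each core in capitals (CACGT and CACGC are the same cores on the other strand). The Slc16a3 window at chr11:120948817-120949052 (plus strand) was ended before an annotated exon and holds 1 of the 2 cores counted in its full 250 bases. The Egln3 window at chr12:54203875-54204124 (minus strand) holds 1 core, the Hk2 window at chr6:82774455-82774704 (minus strand) holds 2 and the P4ha2 window at chr11:54100674-54100923 (plus strand) holds 3. A match describes letters in this window only.
Slc16a3: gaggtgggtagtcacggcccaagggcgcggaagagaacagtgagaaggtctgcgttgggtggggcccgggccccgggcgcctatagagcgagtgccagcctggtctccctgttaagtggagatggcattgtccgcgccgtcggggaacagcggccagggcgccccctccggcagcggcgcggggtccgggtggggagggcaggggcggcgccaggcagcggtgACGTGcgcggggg
Egln3: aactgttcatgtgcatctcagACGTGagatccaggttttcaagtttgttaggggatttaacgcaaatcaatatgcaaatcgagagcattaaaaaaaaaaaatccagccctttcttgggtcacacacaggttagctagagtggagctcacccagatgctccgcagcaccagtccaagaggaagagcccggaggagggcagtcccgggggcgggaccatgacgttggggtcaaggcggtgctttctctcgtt
Hk2: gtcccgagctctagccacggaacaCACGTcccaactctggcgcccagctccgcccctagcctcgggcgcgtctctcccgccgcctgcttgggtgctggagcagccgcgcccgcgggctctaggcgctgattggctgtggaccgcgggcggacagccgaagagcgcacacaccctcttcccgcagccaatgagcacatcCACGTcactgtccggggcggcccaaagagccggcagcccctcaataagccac
P4ha2: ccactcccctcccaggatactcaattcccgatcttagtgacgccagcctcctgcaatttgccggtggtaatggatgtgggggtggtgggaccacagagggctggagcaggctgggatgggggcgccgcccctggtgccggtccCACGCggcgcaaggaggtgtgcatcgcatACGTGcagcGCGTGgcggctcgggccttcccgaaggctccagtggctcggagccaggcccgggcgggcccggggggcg

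Neutrophil-like wells were compared with fibroblast-like wells of the same 6 mice, with transcripts summed per mouse and the mouse as a block. Both glucose transporters, all 3 tested genes of flux control and lactate export, Hif1a and Egln3 were higher in neutrophil-like wells. Several hypoxia-response genes, led by P4ha2, Adm and Ndrg1, were lower. Of the 34 members, 28 passed the filter on low counts, of which 14 were higher, 8 lower and 6 not called by edgeR's quasi-likelihood test at a Benjamini-Hochberg adjusted p under 0.05. Of all 6008 genes tested, 74.8% were called, 23.4% higher and 51.4% lower. The median log2 difference was 0.76 over the tested members and -1.003 over all genes, and 21 of the 28 lay above the median of all genes. The median of all genes ranged from -1.44 to -0.58 over the other settings, so that a log2 difference is read against it.

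Slc16a3, the exporter MCT4 that carries lactate out of highly glycolytic cells, showed the widest gap. It was at 1351 to 1998 CPM in neutrophil-like wells (median 1527, n = 6 mice) and at 5.30 to 32.9 CPM in fibroblast-like wells (median 15.7). No mouse came near overlap, and in neutrophil-like wells Slc16a3 stood beside Pkm as the highest member. The log2 difference was 7.01 ± 0.36 (SE; adjusted p = 4.08e-70, edgeR). Thinned to 500 barcode counts per well, Slc16a3 was detected in 53.2% of 410 neutrophil-like wells (exact 95% interval 48.2% to 58.1%) and in 1.30% of 538 fibroblast-like wells (0.525% to 2.66%), with 20 and 15 shallower wells left out. Without thinning it was detected in 82.6% and 10.3%, at median depths of 1451 and 11860 transcripts. Wells of all 6 mice were pooled here, so the intervals cover counting error only and no spread between mice.

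Neutrophil transcripts were present at a low level in fibroblast-like wells. Il1b was in fibroblast-like wells at 0.191% of its neutrophil-like level, Srgn at 0.624%, Ccrl2 at 2.10% and Cxcl2 at 2.23%. The last 3 are not particular to neutrophils. Cxcl2 was at 248 CPM in epithelial-like wells against 151 CPM in fibroblast-like wells. Srgn and Ccrl2 were at 126 and 65.2 CPM in pericyte-like wells against 88.7 and 19.9 CPM in fibroblast-like wells. The 10 neutrophil markers summed to 1.15 to 6.45 per 10000 transcripts in fibroblast-like wells and to 687 to 1255 in neutrophil-like wells. They were highest in fibroblast-like wells of FibCtrl mouse 2, FibΔZeb1 mouse 3 and FibCtrl mouse 3, the same mice in which Slc16a3 was at 22.4, 32.9 and 21.5 CPM against 5.30 to 9.84 in the others. Their part in the Slc16a3 level of fibroblast-like wells was not tested.

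Glucose uptake genes moved the same way. Slc2a3, the high-affinity transporter GLUT3, was at 207 to 810 CPM in neutrophil-like wells (median 542) and at 5.92 to 49.3 CPM in fibroblast-like wells (median 14.2), with a log2 difference of 5.02 ± 0.33 (adjusted p = 2.33e-44, edgeR). Slc2a1, the widespread transporter GLUT1, was at 231 to 368 CPM against 26.1 to 107 CPM, a log2 difference of 2.53 ± 0.29 (adjusted p = 1.83e-16, edgeR). For both genes the lowest neutrophil-like mouse was above the highest fibroblast-like mouse. Pfkfb4 and Pfkfb3 make and break fructose 2,6-bisphosphate, the activator of phosphofructokinase. Pfkfb4 was at 129 to 233 CPM against 7.45 to 24.7 CPM, a log2 difference of 3.83 ± 0.37 (adjusted p = 2.00e-22, edgeR). Pfkfb3 ranged from 0 to 507 CPM in neutrophil-like wells and from 14.1 to 82.0 CPM in fibroblast-like wells, so that the ranges overlapped, and its log2 difference was 2.20 ± 0.36 (adjusted p = 4.59e-09, edgeR).

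Of the 12 glycolytic enzymes tested, 5 were higher and 2 lower in neutrophil-like wells, beside 23.4% and 51.4% of all genes. Pkm was at 1308 to 2296 CPM against 417 to 744 CPM, with no overlap and a log2 difference of 1.63 ± 0.27 (adjusted p = 5.86e-09, edgeR). Gpi1 and Pfkp, the platelet-type phosphofructokinase, each rose by a log2 difference of 1.68, Pgk1, the phosphoglycerate kinase, by 1.25 and Aldoa by 1.03, the last lost as a call without the filter on low counts (adjusted p = 0.0946, edgeR). Hk2 was lower by a log2 difference of -0.70 ± 0.31 (adjusted p = 0.0341, edgeR), which lies above the median of all genes, and was lost as a call without FibCtrl mouse 1, 2 or 3, without FibΔZeb1 mouse 1 or without the block. Eno2, the neuron-type enolase, was lower by -1.28 ± 0.56 and was lost as a call in 6 of 13 settings, among them leaving out any mouse but FibΔZeb1 mouse 3. Ldha, Gapdh, Pgam1, Tpi1 and Hk1, the housekeeping hexokinase, were not called, with log2 differences of 0.29, 0.47, 0.50, -0.44 and -0.06. Pfkl, Aldoc and Eno1 were not tested.

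Oxygen-sensing genes were split between the cell types. Hif1a, which encodes the oxygen-regulated subunit of HIF-1, was at 362 to 533 CPM in neutrophil-like wells and at 86.3 to 145 CPM in fibroblast-like wells, with a log2 difference of 1.96 ± 0.28 (adjusted p = 3.16e-11, edgeR). Egln3, the prolyl hydroxylase PHD3, was at 108 to 474 CPM against 20.1 to 164 CPM, a log2 difference of 2.80 ± 0.32 (adjusted p = 6.61e-17, edgeR). The Egln3 ranges overlapped through FibCtrl mouse 2, the highest of the fibroblast-like wells and the lowest of the neutrophil-like wells. Egln1, the main oxygen sensor PHD2, was lower by -1.09 ± 0.44 (adjusted p = 0.0204, edgeR), close to the median of all genes, and was lost as a call in 5 of 14 settings, among them leaving out FibΔZeb1 mouse 1 or any FibCtrl mouse.

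Among the 8 tested hypoxia-response genes, 5 were lower and 2 higher in neutrophil-like wells, while 51.4% of all genes were lower. Relative to the median of all genes, P4ha1 lay at -0.35 and Higd1a at -0.20. P4ha2, a subunit of the prolyl hydroxylase that matures collagen, was at 24.7 to 51.6 CPM in fibroblast-like wells and had 0 counts in the 734979 transcripts of neutrophil-like wells. Against the limit of 3 counts over that group, 4.08 CPM, it was at least 11.5-fold higher in fibroblast-like wells (adjusted p = 1.46e-07, edgeR). P4ha1, another catalytic subunit, was at 60.0 to 160 CPM in fibroblast-like and at 0 to 77.5 CPM in neutrophil-like wells. Its log2 difference was -1.35 ± 0.39 (adjusted p = 0.00105, edgeR). This call was lost without FibCtrl mouse 3 and without both mice of few fibroblast-like wells. Ndrg1 was at 134 to 651 CPM against 38.5 to 67.5 CPM, with no overlap and a log2 difference of -2.22 ± 0.35 (adjusted p = 1.23e-09, edgeR). Adm had 3 counts in neutrophil-like wells, and its log2 difference was -3.12 ± 0.71 (adjusted p = 2.91e-05, edgeR). Ero1l, an oxidase of disulfide formation, and Bnip3, a mitophagy receptor, were higher by 2.44 ± 0.31 and 1.68 ± 0.33. Higd1a, a mitochondrial protein of hypoxia, was lower by -1.20 ± 0.44 and was lost as a call in 4 of 14 settings, among them leaving out FibCtrl mouse 1, FibCtrl mouse 2 or FibΔZeb1 mouse 1. Bnip3l, a second mitophagy receptor, was not called at 0.35 ± 0.28.

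Fibroblast genes were also present in neutrophil-like wells. Sparc, Bgn, Serping1 and Igfbp4 stood there at 6.97% to 8.88% of their fibroblast-like level, and the 10 fibroblast markers summed to 14.7 to 64.8 per 10000 transcripts against 408 to 551. Adm in neutrophil-like wells was at 6.46% of its fibroblast-like level, Ndrg1 at 19.5% and P4ha1 at 36.6%. How far fibroblast RNA set the levels of these genes in neutrophil-like wells was not tested.

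**Figure D3:**
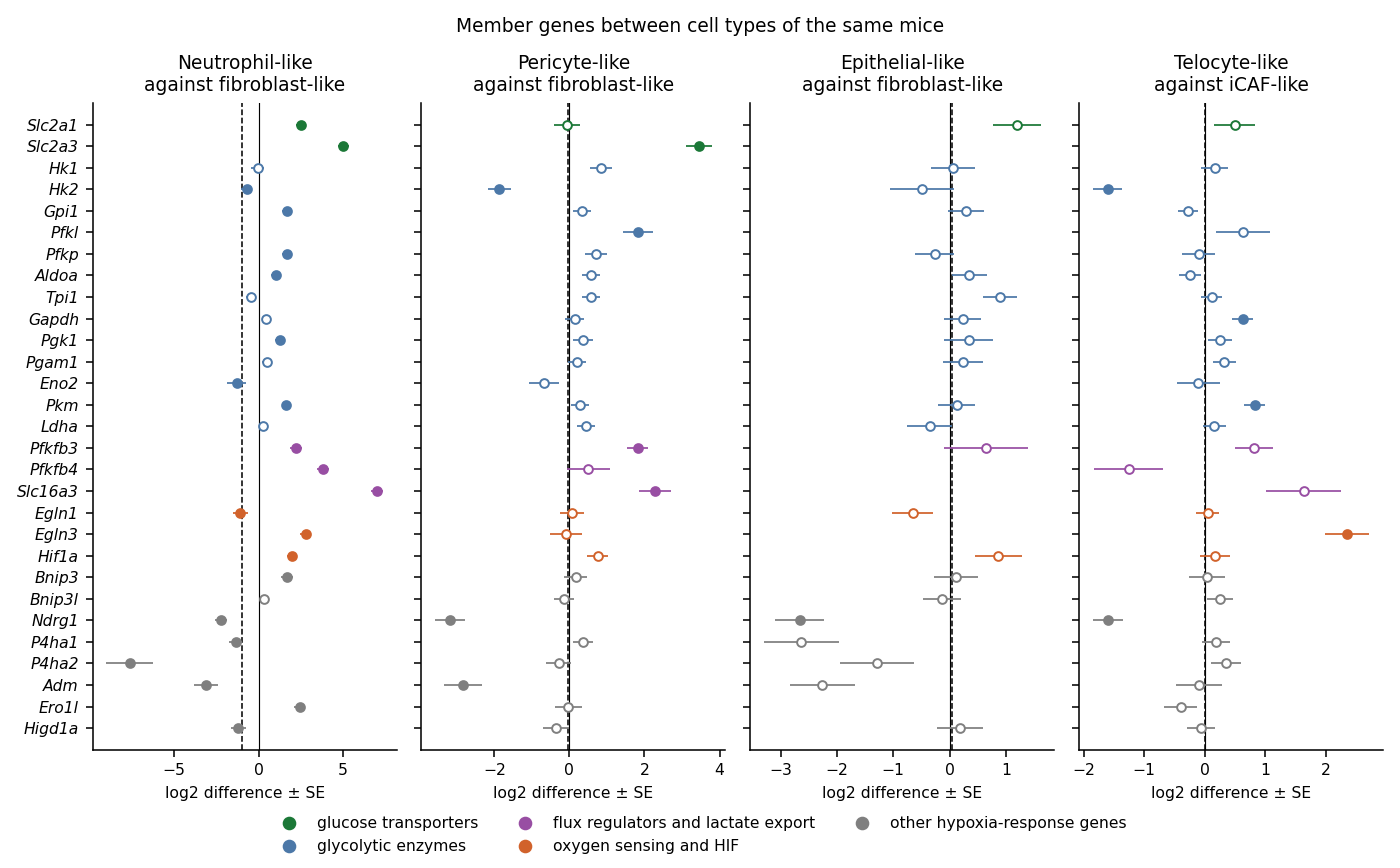
Log2 difference ± SE of each tested member in 4 comparisons of cell types within mice, coloured by role, with called members filled and the median of all genes as a dashed line. Slc16a3 lies at 7.01 in the neutrophil comparison, the point of P4ha2 there is set by a count of 0 and stands only for at least 11.5-fold, and Ndrg1 is called lower in all 4 comparisons.

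From the list of 37 other pathway genes, 19 were tested in this comparison, of which 5 were higher (26.3%) and 8 lower (42.1%), near the 23.4% and 51.4% of all genes. Slc2a6, a glucose transporter family member of myeloid cells, was at 270 to 710 CPM in neutrophil-like and 0 to 11.2 CPM in fibroblast-like wells, a log2 difference of 7.19 ± 0.39 (adjusted p = 2.71e-62, edgeR). Hk3, the myeloid hexokinase, differed by 6.90 ± 0.47 (adjusted p = 2.14e-42, edgeR). Plod2, which hydroxylates lysines of collagen, differed by -4.36 ± 0.46, Bpgm, the bisphosphoglycerate mutase, by -3.08 ± 0.59 and Epas1, which encodes HIF-2α, by -2.66 ± 0.38. Of 18 genes of oxidative phosphorylation, 0 were higher and 15 lower, with a median of -1.35 beside -1.003 for all genes. Of 10 genes of dissociation and stress, 2 were higher and 7 lower, with a median of -1.95.

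In pericyte-like wells, which hold Rgs5, Rgs4 and Notch3, Slc2a3, Slc16a3, Pfkl and Pfkfb3 were higher and Ndrg1, Adm and Hk2 lower than in fibroblast-like wells. Pericyte-like and fibroblast-like wells were compared in FibCtrl mice 1 and 3 and FibΔZeb1 mouse 1, the mice with at least 10 wells of both. Of 29 members tested, 4 were higher, 3 lower and 22 not called, beside 8.14% higher and 9.59% lower of all 8256 genes tested. The member median was 0.27 and that of all genes -0.03.

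Slc2a3 was at 149, 173 and 112 CPM in pericyte-like wells of these mice in that order and at 5.92, 21.5 and 11.6 CPM in their fibroblast-like wells. Every pericyte-like value was above every fibroblast-like value, and the log2 difference was 3.45 ± 0.34 (adjusted p = 1.54e-06, edgeR). Slc16a3 was at 62.7, 63.1 and 54.2 CPM, far under its neutrophil-like level, and its log2 difference from fibroblast-like wells was 2.27 ± 0.43 (adjusted p = 0.00101, edgeR). Pfkl, the liver-type phosphofructokinase, and Pfkfb3 were higher by 1.83 ± 0.39 and 1.82 ± 0.29. Slc2a1 and Pfkfb4 were not called, with log2 differences of -0.07 and 0.50. Ndrg1 was at 47.0, 0 and 31.0 CPM in pericyte-like and at 295, 273 and 189 CPM in fibroblast-like wells, which did not overlap. Its log2 difference was -3.17 ± 0.40 (adjusted p = 2.34e-05, edgeR). Adm was lower by -2.84 ± 0.50 and Hk2 by -1.86 ± 0.31 (adjusted p = 0.00059 and 0.00031, edgeR). Of 10 genes of dissociation and stress, 3 were lower and 0 higher, beside 9.59% lower and 8.14% higher of all genes. Their median was -0.52, and their part in these differences was not tested. The highest members were Ldha at 791 ± 9 CPM, Pkm at 762 ± 156, Aldoa at 456 ± 29, Gapdh at 388 ± 151 and Pgam1 at 297 ± 73 (n = 3).

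Among 23 other pathway genes tested in pericyte-like wells, 4 were higher and 1 lower, beside 8.14% and 9.59% of all genes. Epas1 was at 1917, 1939 and 1793 CPM in pericyte-like and at 242, 300 and 270 CPM in fibroblast-like wells, a log2 difference of 2.68 ± 0.25 (adjusted p = 7.92e-07, edgeR). Ddit4, a stress inhibitor of mTORC1, was higher by 3.25 ± 0.34, Hilpda, a lipid droplet protein of hypoxia, by 2.49 ± 0.43 and Slc2a4, the insulin-regulated transporter GLUT4, by 4.65 ± 1.06. Plod2 was lower by -2.72 ± 0.32.

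In epithelial-like wells, which hold Krt8, Krt18 and Krt19, no member was called higher. The comparison used FibCtrl mouse 3 and FibΔZeb1 mice 2 and 3, and 22 members were tested, of which 1 was lower and 21 were not called by edgeR, while 5 had an unadjusted p under 0.05. DESeq2 called 0 higher and 2 lower. Of all 5910 genes tested, 3.1% were higher and 8.73% lower. Ndrg1 was at 89.3, 36.5 and 66.2 CPM in epithelial-like and at 273, 222 and 651 CPM in fibroblast-like wells, a log2 difference of -2.66 ± 0.44 (adjusted p = 0.0166, edgeR), and the groups did not overlap. Without FibΔZeb1 mouse 3 the adjusted p was 0.0865. Slc2a1 was at 150, 224 and 160 CPM in epithelial-like wells, with a log2 difference of 1.19 ± 0.42 that did not pass (adjusted p = 0.135, edgeR). The highest members were Pkm at 774 ± 132 CPM, Ldha at 567 ± 256, Aldoa at 464 ± 64, Gapdh at 451 ± 55 and Pgam1 at 356 ± 119 (n = 3). Of 17 other pathway genes tested, 2 were higher and 4 lower. Ldhb, the lactate dehydrogenase subunit of oxidative tissues, was at 166, 282 and 282 CPM against 15.8, 44.2 and 16.4 CPM in fibroblast-like wells, a log2 difference of 3.07 ± 0.40 (adjusted p = 0.00837, edgeR).

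Within the fibroblast-like wells, telocyte-like wells (Wnt5a, Nrg1; 155 wells) and iCAF-like wells (inflammatory fibroblasts with Has1, Sfrp4 and Ptx3; 324 wells) differed in 5 called members. The member share was 0.429% ± 0.031 in telocyte-like (n = 5) and 0.367% ± 0.009 in iCAF-like wells (n = 4), and it was higher in telocyte-like wells in 4 of 4 mice with both, by 1.17-fold ± 0.09. Of 28 members tested in these 4 mice, 3 were higher in telocyte-like wells (10.7%), 2 lower (7.14%) and 23 not called, beside 5.79% higher and 6.92% lower of all 8830 genes tested. The medians of members and of all genes were 0.16 and 0.01.

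Hk2 was at 485, 342, 257 and 273 CPM in iCAF-like wells of FibCtrl mice 1 and 3 and FibΔZeb1 mice 1 and 2. In telocyte-like wells of the same mice it was at 116, 95.4, 141 and 122 CPM, so that every iCAF-like value was above every telocyte-like value. The log2 difference was -1.60 ± 0.24 (adjusted p = 0.00135, edgeR), and the call held in all 11 other settings.

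Ndrg1, lower than in fibroblast-like wells in the 3 cell types compared, was at 371, 406, 268 and 267 CPM in iCAF-like wells and at 72.9, 218, 108 and 104 CPM in telocyte-like wells of these mice. The groups did not overlap and the log2 difference was -1.59 ± 0.25 (adjusted p = 0.00164, edgeR). With a mitochondrial limit of 20%, which let all 6 mice enter, the difference was -1.01 and the adjusted p 0.0786.

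Egln3 was at 63.1, 26.4, 66.5 and 34.7 CPM in telocyte-like and at 7.10, 5.41, 9.85 and 16.1 CPM in iCAF-like wells. It was higher in telocyte-like wells of each of these 4 mice, with no overlap and a log2 difference of 2.36 ± 0.36 (adjusted p = 0.00148, edgeR). Egln3 was sparse, found without thinning in 28 of 324 iCAF-like and 48 of 155 telocyte-like wells. In telocyte-like wells, 1 well per mouse gave 27.2% to 34.4% of its transcripts. In the mice left out for few iCAF-like wells, telocyte-like Egln3 was at 282 CPM (FibCtrl mouse 2) and 13.8 CPM (FibΔZeb1 mouse 3). Pkm was higher by 0.83 ± 0.18 (adjusted p = 0.00992, edgeR), a call lost without FibCtrl mouse 1 or FibΔZeb1 mouse 1. Gapdh was higher by 0.63 ± 0.18 (adjusted p = 0.0415, edgeR), and this call was lost in 7 of 11 settings, among them leaving out any of the 4 mice.

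Of 10 genes of dissociation and stress, 6 were lower in telocyte-like than in iCAF-like wells and 0 higher. Among all genes tested, 6.92% were lower and 5.79% higher. The part of handling stress in the difference of Hk2 and Ndrg1 was not tested. Among 24 other pathway genes tested, Bpgm was higher by 1.85 ± 0.32 and Epas1 by 1.26 ± 0.28, while Slc16a1, the lactate carrier MCT1, was lower by -1.49 ± 0.34 (adjusted p = 0.00297, 0.0117 and 0.0144, edgeR).

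Ankrd37 was sparse in fibroblast-like wells and was not particular to them. Without thinning, 11 of 72 pericyte-like, 5 of 54 epithelial-like and 4 of 430 neutrophil-like wells held it. Neutrophil-like wells were shallower, with a median of 1451 transcripts against 11860 in fibroblast-like wells. Pooled over wells, Ankrd37 was at 6.80 CPM in neutrophil-like and 3.49 CPM in fibroblast-like wells. Of 553 fibroblast-like wells, 12 held any Ankrd37, among them 6 of 324 iCAF-like and 6 of 155 telocyte-like wells. At least 2 transcripts of it were held by 4 wells, all telocyte-like, with 2 each in FibCtrl mouse 3 and FibΔZeb1 mouse 3. A cut at 2 transcripts is reached more easily in deeper wells. The median depth was 16052 transcripts in telocyte-like and 11518 in iCAF-like wells. The member shares of the 4 wells were 1.25% and 0.813% in FibCtrl mouse 3 and 1.23% and 0.907% in FibΔZeb1 mouse 3. In these wells Ndrg1 was at 1124 to 2944 CPM, P4ha1 at 166 to 749 CPM and Slc2a1 at 115 to 527 CPM. The 4 wells held 5.61% of the further hypoxia-response counts and 10.1% of the Ndrg1 counts of all fibroblast-like wells. Vegfa, the angiogenic growth factor and a known HIF target, was at 154 to 1492 CPM in them. The median of Ndrg1 over the other telocyte-like wells was 61.9 CPM in FibCtrl mouse 3 (35 wells) and 0 CPM in FibΔZeb1 mouse 3 (6 wells). Single wells among those 35 reached 2463 CPM for Ndrg1, 1267 for P4ha1, 885 for Slc2a1 and 1911 for Vegfa, so that the ranges overlapped. Ankrd37 itself reached 397 CPM among those 35, above the 374 CPM of the highest of the 4 wells. The wells were picked by Ankrd37, a member, and their levels are a description.

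The summed levels of FibΔZeb1 mouse 3 rested on its 2 wells. Over its 15 fibroblast-like wells, Ndrg1 was at 651 CPM with and 116 CPM without them. In the 8 telocyte-like wells of FibΔZeb1 mouse 3, Ndrg1 was at 971 CPM, and at 36.4 CPM without the 2 wells. Slc2a1 there was at 173 CPM with and 36.4 CPM without them. In FibCtrl mouse 3, leaving out its 2 wells moved Ndrg1 from 218 to 152 CPM. For Egln3 in telocyte-like wells of FibCtrl mouse 2, at 282 CPM, 1 well gave 79.6% of the transcripts.

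Of the 10 fibroblast-like wells with the highest member share among those with at least 2000 transcripts, 6 were telocyte-like, 4 had no subtype and 0 were iCAF-like, and 7 came from FibCtrl mouse 3 or FibΔZeb1 mouse 3. The highest, at 2.43% in FibCtrl mouse 1, also held 35.2 transcripts of S100a8. Across fibroblast-like wells of a mouse, the Spearman correlation of Hk2 with Ndrg1 was 0.45, 0.52 and 0.21 in FibCtrl mice 1 to 3 and 0.34, 0.02 and 0.45 in FibΔZeb1 mice 1 to 3, over 176, 20, 56, 163, 123 and 15 wells. Wells of a mouse share plate and library, and subtype and depth enter this correlation.

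**Figure D4:**
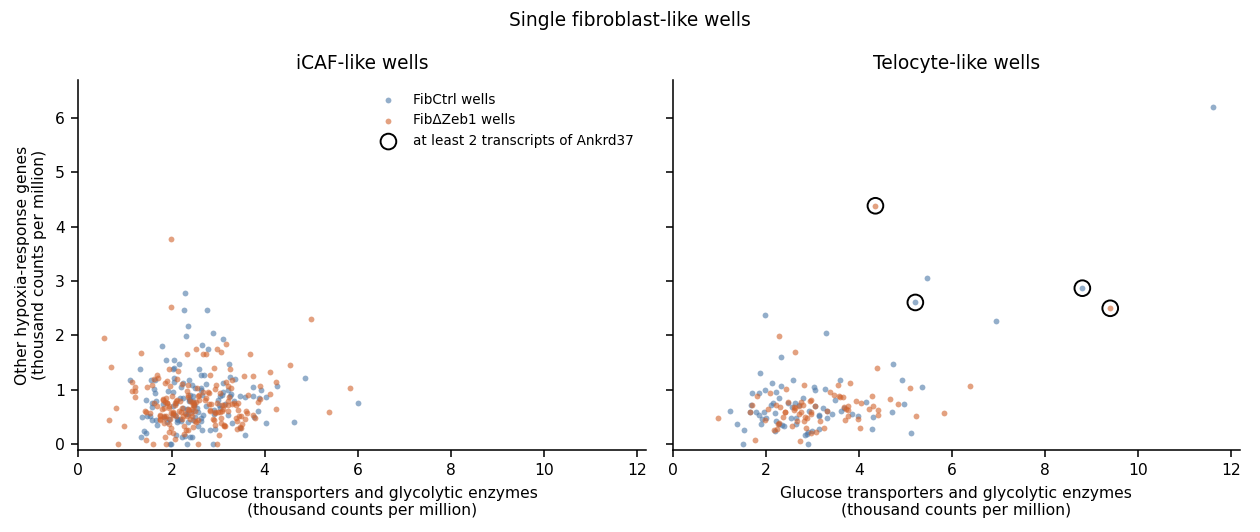
Summed level of the further hypoxia-response genes against that of the transporters and enzymes in single iCAF-like and telocyte-like wells, on axes of scaled CPM, with FibCtrl wells in blue and FibΔZeb1 wells in orange. The 4 circled wells, with at least 2 Ankrd37 transcripts, are telocyte-like and lie outside the main cloud, 2 in each genotype.

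Between genotypes, no member was called in either cell type. In fibroblast-like wells 29 members were tested, of which 0 were called by edgeR and 0 had an unadjusted p under 0.05, and DESeq2 also called 0. Of all 8883 genes tested, 0% were called by edgeR (144 genes had an unadjusted p under 0.05) and DESeq2 called 0 (91 genes). Zeb1, the deleted gene, was thus not called either, although it was at 96.1 to 111 CPM in FibCtrl and 58.2 to 66.2 CPM in FibΔZeb1 mice. A missing call here therefore does not show equal levels. Log2 differences of the members ranged from -0.79 to 0.90 with a median of 0.08, beside 0.01 for all genes. Fibroblast-like wells pooled subtypes whose mix differed by mouse. The iCAF-like wells were 115 of 176, 8 of 20 and 12 of 56 in FibCtrl mice 1 to 3. They were 90 of 163, 92 of 123 and 7 of 15 in FibΔZeb1 mice 1 to 3. The part of this mix in differences between mice or genotypes was not tested. The member share was 0.404% ± 0.040 in FibCtrl and 0.427% ± 0.067 in FibΔZeb1 mice (n = 3 each), and the groups overlapped. Without the 4 wells with at least 2 Ankrd37 transcripts the order turned, with 0.394% ± 0.023 in FibCtrl and 0.365% ± 0.040 in FibΔZeb1 mice. These wells were picked by a member after seeing the data. Their member shares were 0.813% to 1.25%, so that leaving them out lowers the share of the mice that hold them.

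The groups did not overlap for 2 of the 29 members, while this held for 6.21% of all genes tested. Aldoa was at 296, 346 and 325 CPM in FibΔZeb1 mice and at 262, 250 and 284 CPM in FibCtrl mice, a log2 difference of 0.30 ± 0.20. Hif1a was at 110, 114 and 86.3 CPM in FibΔZeb1 and at 145, 116 and 128 CPM in FibCtrl mice, a log2 difference of -0.29 ± 0.23. For both genes the exact permutation p was 0.1 (two-sided), the smallest that 3 against 3 mice allow, and the adjusted p was 1 (edgeR).

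Pfkfb3 was at 25.7, 14.1 and 41.1 CPM in FibΔZeb1 and at 32.8, 82.0 and 27.2 CPM in FibCtrl mice, with a log2 difference of -0.79 ± 0.49. Slc2a3 was at 11.6, 16.8 and 49.3 CPM against 5.92, 7.45 and 21.5 CPM, a difference of 0.90 ± 0.67. Both overlapped between the genotypes. Ndrg1 was at 189, 222 and 651 CPM against 295, 134 and 273 CPM, a difference of 0.54 ± 0.48 that turned to -0.18 without FibΔZeb1 mouse 3. The exact permutation p for these 3 genes was 0.4, 0.4 and 0.7.

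In neutrophil-like wells 18 members passed the filter, 0 were called by edgeR and 0 had an unadjusted p under 0.05. Of all 1345 genes tested, 0% were called by edgeR, 57 had an unadjusted p under 0.05, and DESeq2 called 0 with 32 under 0.05. The groups overlapped for all 18 tested members, while they did not for 8.7% of all genes tested. Bnip3 was at 36.7, 137 and 132 CPM in FibΔZeb1 and at 259, 67.6 and 540 CPM in FibCtrl mice, a log2 difference of -1.15 ± 0.72 (exact permutation p = 0.3). Gpi1, Pgk1, Gapdh and Pkm followed with log2 differences of -0.28, 0.40, -0.28 and -0.19 (exact permutation p = 0.3, 0.8, 0.4 and 0.7). The member share was 1.01% ± 0.29 in FibCtrl and 0.920% ± 0.102 in FibΔZeb1 mice.

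A test of the difference itself, the genotype effect in neutrophil-like against that in fibroblast-like wells, called 0 of 28 tested members by edgeR, and 0 of them had an unadjusted p under 0.05. It called 0.0832% of the 6008 genes tested, 269 genes had an unadjusted p under 0.05, and DESeq2 called 0. The member differences ranged from -1.48 to 1.24, with a median of -0.06.

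**Figure D5:**
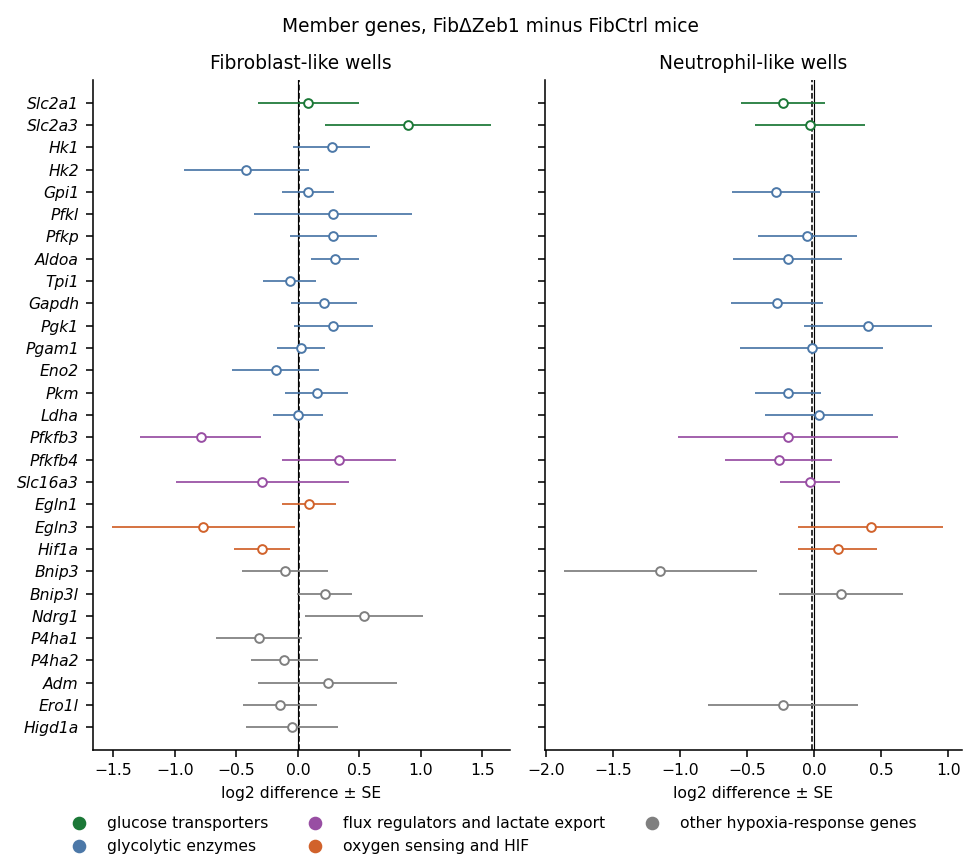
Log2 difference ± SE of FibΔZeb1 minus FibCtrl mice for 29 members in fibroblast-like and 18 in neutrophil-like wells, coloured by role, with the median of all genes as a dashed line. No member is filled, since edgeR called 0, and the estimates lie on both sides of 0.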

How the data were processed

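SORT-seq plates of 6 mice, 3 FibCtrl and 3 FibΔZeb1 as the labels give them, were used. The authors deposited barcode counts, the whole number of molecular barcodes per gene and well. The authors also deposited estimated counts, which are transcript numbers after correction for barcode collisions. The submitters' processing notes list BWA, Cell Ranger 2.1.1 and GRCm38. The estimated counts were summed per mouse and cell type and rounded to whole numbers for tests. Spike-ins (7.85% to 18.6% of plate transcripts) were left out. No columns were left unused, and no doublet caller was run. The same well names recur on all plates.

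Wells with 100 to 6000 genes and under 10% mitochondrial transcripts were kept. A well took the type whose markers were detected (at least 2 transcripts) in the largest share, with at least 3 markers (2 for telocytes), and ties were left without a type. This scoring was set after marker distributions had been seen. Members and lists were chosen with earlier results of these data known. All called members were named. Naming also covered the 5 members with the smallest p in genotype comparisons, the highest members of cell types and the members with the lowest totals.

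Mice with at least 10 wells of both types were compared. Summed counts were tested with edgeR 4.0.16 (quasi-likelihood, TMM, low-count filter, R 4.3.3) with Benjamini-Hochberg adjustment at 0.05 and DESeq2 1.42.0 as an alternative. Cell types were compared within mice, which are the same animals, so the mouse was a block. The SE is the log2 difference divided by the root of F. Single values were tested by exact permutation over mice. Intervals cover counting error only. The fit was tested on simulated data.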

Additional observations from a re-analysis of the deposited data

Results flagged for a closer look

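Of 68 groups of 4 to 6 mice that were examined, 10 held a mouse whose gap to its nearest neighbour was large for the range of the group by Dixon's test at the 95% level, which flags some groups by chance. In fibroblast-like wells of FibΔZeb1 mouse 3, Ndrg1 was high at 651 CPM (median of the mice 247), Slc2a3 high at 49.3 CPM (14.2) and P4ha2 low at 24.7 CPM (46.4). This mouse gave 15 fibroblast-like wells. Without the 2 wells that held at least 2 Ankrd37 transcripts, Ndrg1 was at 116 CPM and Slc2a3 at 27.6 CPM there. In FibCtrl mouse 2, Egln3 was high at 164 CPM in fibroblast-like (28.6) and at 282 CPM in telocyte-like wells (63.1), and 1 telocyte-like well gave 79.6% of the latter. Ndrg1 was high at 218 CPM in telocyte-like wells of FibCtrl mouse 3 (108), and Ldha was low at 384 CPM in iCAF-like wells of FibCtrl mouse 1 (513). In neutrophil-like wells, Pkm was high at 2296 CPM in FibCtrl mouse 3 (1527). In those of FibΔZeb1 mouse 2, Gpi1 was low at 262 CPM (518) and Adm high at 24.95 CPM (0). Adm was found in only 3 of 430 neutrophil-like wells, so that this flag lies at the floor.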

How the results depend on the processing

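Of the single-gene values recomputed, 534 kept their direction and side of the threshold, 34 passed it no longer and 5 changed sign. Against fibroblast-like wells, members lower in neutrophil-like wells (8) ranged from 4 to 9 when single mice were left out, and were 4 without both plates of few fibroblast-like wells, an alternative chosen after seeing the data. Members higher in pericyte-like wells (4) were 7 without TMM. Members lower in epithelial-like wells (1) were 2 with DESeq2, 5 without the filter, 3 with a mitochondrial limit of 20%, and 0 to 2 when single mice were left out. Between telocyte-like and iCAF-like wells, members higher (3) were 5 and members lower (2) were 1 with that limit, and members higher were 1 to 3 when single mice were left out.

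Without the replicate block, the members lower were 4 in neutrophil-like and 2 in epithelial-like wells. No paired analysis was possible between genotypes because their numbers follow accession order.

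Between genotypes, Ndrg1 in fibroblast-like wells (0.54) ranged from -0.18, without FibΔZeb1 mouse 3, to 0.84 when single mice were left out, and was -0.44 without both plates. In neutrophil-like wells Pgk1 (0.40) ranged from -0.15, without FibCtrl mouse 2, to 0.90 and was -0.51 without both plates, and Pkm (-0.19) ranged from -0.36 to 0.0745, the latter without FibCtrl mouse 3. The cause was not tested.

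As the median over wells, the member share was 0.354% in fibroblast-like, 0.461% in pericyte-like, 0.440% in epithelial-like and 0.355% in iCAF-like wells. Without Gapdh it was 0.464% in epithelial-like, 0.343% in iCAF-like and 0.387% in telocyte-like wells. With the 20% limit it was 0.456% in epithelial-like and 0.337% in iCAF-like wells, and thinned to 500 counts 0.348% in iCAF-like and 0.462% in telocyte-like wells. Without the wells of at least 2 Ankrd37 transcripts, also chosen after seeing the data, it was 0.380% in fibroblast-like wells.

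Over all genes, calls went from 4494 to 7691 without the filter and 3064 without the block for neutrophil-like wells. For epithelial-like wells they went from 699 to 1855 without the filter and 277 to 1248 when single mice were left out; for pericyte-like wells from 1464 to 803 and for telocyte-like wells from 1122 to 500 at the lowest of these. A stricter gate gave no fit for pericyte-like, epithelial-like and telocyte-like wells, nor did leaving out Ptprc or Epcam wells for epithelial-like wells.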
